A study of Mus musculus with 9 samples.

Results

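The genes described here encode the secreted and membrane-bound metalloproteinases of the extracellular matrix, their relatives without an active site, and their natural inhibitors. They were taken by symbol from the deposited table: the matrix metalloproteinases (Mmp followed by a number), the ADAMTS proteases (Adamts and a number), the ADAMTS-like proteins (Adamtsl and a digit) and the tissue inhibitors of metalloproteinases (Timp and a digit). The rule found 44 of the 28965 genes in the table, made up of 20 Mmp, 15 Adamts, 5 Adamtsl and 4 Timp genes.

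RNA was profiled by poly(A) selected, strand-specific sequencing in 3T3-L1 cells, an established clonal mouse line of adipocyte precursors labelled as wild type. All 9 libraries came from cells that had reached confluence and then spent 24 h in an adipogenic cocktail that held dexamethasone at 0.1 µg/mL, insulin at 0.1 µg/mL and isobutylmethylxanthine, an inhibitor of phosphodiesterases, at 30 µg/mL. The 3 MDI libraries received the albumin vehicle. The 3 OA libraries received oleic acid at 100 µM on an albumin carrier, and the 3 OA_T0 libraries that same amount plus T0901317 at 5 µM, which activates the liver X receptors (LXR). This agonist was not given without oleic acid, so its effect was measured only on top of the fatty acid. The labels do not say whether replicates were separate cultures, and the p-values measure the spread between these libraries, which may be technical.

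Matrix metalloproteinases are zinc enzymes made as inactive precursors that together can cut most proteins of the matrix. ADAMTS proteases are secreted, carry thrombospondin repeats and cut large proteoglycans, procollagens and other matrix proteins, and ADAMTS-like proteins share the repeats but lack the protease domain. TIMPs bind the active site of these enzymes. In adipose tissue the membrane-anchored collagenase MMP14 is known for opening the collagen matrix around growing adipocytes, and fibroblast-like precursors remodel their matrix while they differentiate.

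Values are normalised counts as deposited, most of which fall on multiples of a step that differs between libraries. The estimated depth was 17.98 to 59.88 M (mega) fragments per library, and 3 fragments, taken as the floor of detection, were worth 1.35 to 4.62 deposited units; floors cover counting error only. A gene annotated as ribosomal RNA made up 0.649% of the summed values of OA replicate 1 and 3.06% in OA_T0 replicate 3, against 4.40% to 5.96% in the other 7 libraries; results are given without these 2 libraries where that matters. All 10 fibroblast and preadipocyte markers, such as Pdgfra, Dlk1 and Col1a1, averaged at least 10 units, and their sum was 290279 to 363517 per library. Of 6 neutrophil markers 4 were found, 3 of them listed at 0 throughout, and of 8 macrophage markers Adgre1 and Tyrobp were listed at 0 throughout, while 3 averaged at least 10 units. These 3 were Cd14, with group means of 58.5 to 80.5, Cd68 (16.5 to 29.6) and Lyz2 (16.5 to 26.2). Of the adipocyte markers, Adipoq, Plin1 and Cfd averaged under 10 units, while Fabp4 had group means of 374 to 2024 and Lipe of 119 to 347.

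A group of neighbours on chromosome 9 shows how differently related genes of the family stood in these cells. In the RefSeq order Mmp13, Mmp12, Mmp1b, Mmp3, Mmp1a, Mmp10, Mmp8 and Mmp27 follow one another with no other protein-coding gene between them. Mmp3, stromelysin-1, averaged 43.5 units per kb of coding transcript over the 9 libraries. The level of Mmp8, neutrophil collagenase, was 4.37 per kb, and that of Mmp27 was 2.43 per kb. Mmp13, a collagenase, stood at 0.887 per kb, Mmp1b at 0.289, Mmp12 at 0.209 and Mmp1a at 0.146, while Mmp10, stromelysin-2, was listed at 0 in all 9 libraries. Mmp1a and Mmp1b are related copies between which the counting could split reads, and Mmp12 and Mmp1b overlap on opposite strands. The 100 bases upstream of the starts of these genes are shown because they hold the promoter element that the family is best known for, the binding site of the AP-1 transcription factors (Fos and Jun proteins), in genes that differed in RNA level. They are from RefSeq with coordinates of GRCm38.p6, a later build than the mm9 named in the submitters' processing notes. They are written 5′ to 3′ on the gene's strand, up to the base before the start, and Mmp12 has an upstream and a downstream start of transcription. Capitals mark TGANTCA, the AP-1 site, searched on both strands, and TATAAA, the letters of the TATA box, searched on the gene's strand. TATAAA lay 2 to 7 bases before the listed start of Mmp3 and 44 to 49 before that of Mmp1b. Distances of both motifs depend on the listed starts, and the marks do not say that a site is in use.
Mmp13 (chr9:7272414-7272513, plus strand): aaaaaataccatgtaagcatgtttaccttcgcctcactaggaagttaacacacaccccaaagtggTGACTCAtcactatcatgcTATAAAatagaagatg
Mmp12, upstream start (chr9:7344297-7344396, plus strand): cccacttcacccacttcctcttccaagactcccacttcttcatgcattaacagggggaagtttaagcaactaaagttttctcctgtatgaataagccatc
Mmp12, downstream start (chr9:7347274-7347373, plus strand): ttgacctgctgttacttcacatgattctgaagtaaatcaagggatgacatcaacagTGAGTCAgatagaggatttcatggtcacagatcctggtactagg
Mmp1b (chr9:7388027-7388126, minus strand): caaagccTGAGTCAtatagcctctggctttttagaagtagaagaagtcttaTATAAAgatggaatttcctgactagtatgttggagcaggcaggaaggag
Mmp3 (chr9:7445722-7445821, plus strand): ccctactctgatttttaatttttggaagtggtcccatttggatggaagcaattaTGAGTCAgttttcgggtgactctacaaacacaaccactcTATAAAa
Mmp1a (chr9:7464041-7464140, plus strand): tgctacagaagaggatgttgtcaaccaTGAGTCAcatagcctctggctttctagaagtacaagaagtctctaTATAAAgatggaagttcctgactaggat
Mmp10 (chr9:7502242-7502341, plus strand): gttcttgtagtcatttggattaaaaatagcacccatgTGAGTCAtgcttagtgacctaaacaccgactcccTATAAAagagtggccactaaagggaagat
Mmp8 (chr9:7558329-7558428, plus strand): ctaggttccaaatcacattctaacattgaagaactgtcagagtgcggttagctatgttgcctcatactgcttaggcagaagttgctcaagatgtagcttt
Mmp27 (chr9:7571296-7571395, plus strand): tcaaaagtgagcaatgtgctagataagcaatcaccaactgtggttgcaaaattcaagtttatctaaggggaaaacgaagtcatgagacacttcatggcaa

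The AP-1 letters were found in 6 of the 8 genes, 40 to 46 bases before the start of Mmp3, 57 to 63 before that of Mmp10, 67 to 73 for Mmp1a, 87 to 93 for Mmp1b, 29 to 35 for Mmp13 and 38 to 44 for the downstream start of Mmp12. The upstream start of Mmp12, Mmp8 and Mmp27 held none in the 250 bases before the start. A promoter was found for 32 of the 44 genes, with 34 starts, and these 6 starts (17.6%) were the only ones of the 34 with TGANTCA in that window. Of all 32851 starts listed there, 6.75% held it. The motif was present alike upstream of Mmp3 and of 5 genes at or near the floor. None of the 34 held the cAMP response element TGACGTCA, which stood in 1.55% of all starts, or a direct repeat of AGGTCA, the half-site of many nuclear receptors, spaced by 1 base (0.0335% of all starts) or by 4 bases (0.0152%); all were searched on both strands. A match is a description of letters and not of binding. Among the 12 genes described next as passing a test, 6 had a promoter there. Mmp3 had 37.6% G and C in its 250 bases, against 65.6% for Timp3, 71.2% for Adamts9, 76.4% for Adamts14, 78% for Adamts2 and 80% for Adamtsl3. The other starts of the chromosome 9 group held 37.2% (Mmp10) to 44.8% (Mmp8), so a low share was not particular to Mmp3.

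Of the 44 genes, 31 averaged at least 10 units over the 9 libraries and were tested: 11 Mmp, 12 Adamts, 4 Adamtsl and all 4 Timp genes. Per kb of coding transcript, the highest levels over the 9 libraries were those of Timp1 (8023), Timp2 (3920), Adamts1 (3815), Mmp2 (2900) and Mmp14 (1130). Adamts2 followed at 688 and Mmp19 at 531. Timp3 stood at 110.1 per kb and Timp4 at 3.49. The lowest tested were Mmp15 (2.17 per kb) and Adamts16 (2.25). The most abundant transcripts per kb thus included 2 inhibitors, an ADAMTS protease and 2 metalloproteinases.

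**Figure D1:**
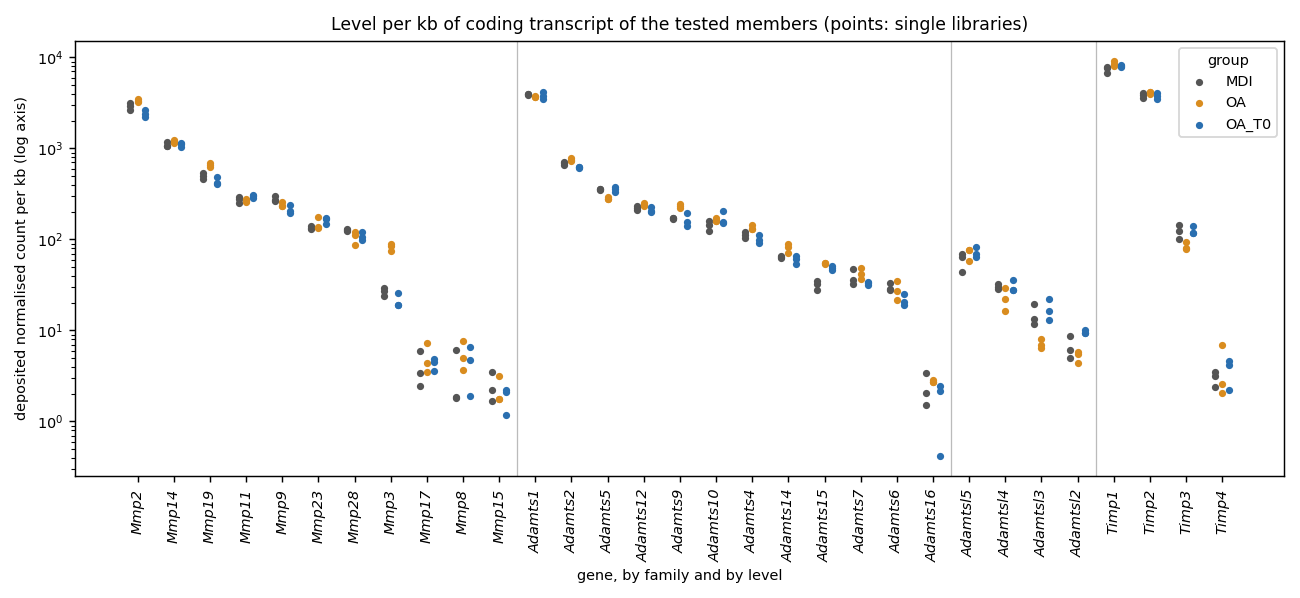
Deposited normalised count per kb of coding transcript (log axis) of the 31 tested genes, in single libraries coloured by group, ordered by family and level. Timp1, Timp2, Adamts1 and Mmp2 lie highest, and Mmp3 is the gene whose 3 OA points stand clearest above the other 6.

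The other 13 genes were too low to test. Mmp10, Adamts13 and Adamts20 were listed at 0 in every library, which allows up to 3 fragments in each. Mmp12, Mmp1a, Mmp1b, Mmp21 and Mmp25 lay at or under the floor in every library. Mmp24 exceeded it in 1 library, Mmp13 in 3, Adamts17 and Adamtsl1 in 4 each, and Mmp27 in 6. Their averages over the 9 libraries ranged from 0 to 4.06 units, and no comparison is made for them.

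OA against MDI compares the fatty acid with its vehicle, and OA_T0 against OA compares the fatty acid with and without the agonist. With oleic acid, Mmp3, Mmp19, Adamts9 and Adamts15 rose and Adamts5, Adamtsl3 and Timp3 fell. With the agonist added, Mmp2, Mmp3, Mmp19, Adamts2, Adamts4, Adamts9 and Adamts14 fell and Adamts5, Adamtsl3 and Timp3 rose. Passing means an adjusted p below 0.05 by limma on log2(value + 1), adjusted by the Benjamini-Hochberg method over all 15002 genes tested. In OA against MDI 4 of the 31 rose and 3 fell, or 22.6% called, where 6.79% of all tested genes were called, 3.43% higher and 3.36% lower. In OA_T0 against OA 3 rose and 7 fell, or 32.3%, beside 15.1% of all tested genes, 8.27% higher and 6.84% lower. In OA_T0 against MDI 1 rose and 1 fell, or 6.45%, beside 2.61% of all tested genes, 1.25% higher and 1.36% lower. The median log2 fold change of the 31 was 0.14 in OA against MDI (0.014 over all tested genes), -0.16 in OA_T0 against OA (-0.0023) and -0.030 in OA_T0 against MDI (0.019). OA libraries enter the first 2 comparisons with opposite signs, so opposite calls in them are not independent, and each is given with its own values. Fewer cells making a transcript and less transcript per cell cannot be told apart in these bulk samples.

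Adipocyte markers moved with the comparisons. Of the 6 markers 5 were found, and their sum was 424 to 605 in MDI, 2190 to 2750 in OA and 693 to 872 in OA_T0. The sum came mostly from Fabp4, at 374, 2024 and 661 in MDI, OA and OA_T0, and Lipe, at 122, 347 and 119. Adipoq, Plin1 and Cfd averaged 3.67, 0.826 and 0.150 in MDI, 1.15, 5.03 and 0.447 in OA, and 1.70, 1.87 and 0.335 in OA_T0. The part of this shift in the differences of the family was not tested. Counted by whether groups overlapped, 15 of the 31 tested genes (48.4%) did not overlap between OA and MDI, where 26.1% of all tested genes did not, 13.4% higher and 12.6% lower. Between OA_T0 and OA 17 (54.8%) did not overlap, beside 32.1% of all, 17.1% higher and 15% lower. Between OA_T0 and MDI 7 (22.6%) did not, beside 23.5% of all, 13.3% higher and 10.2% lower.

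**Figure D2:**
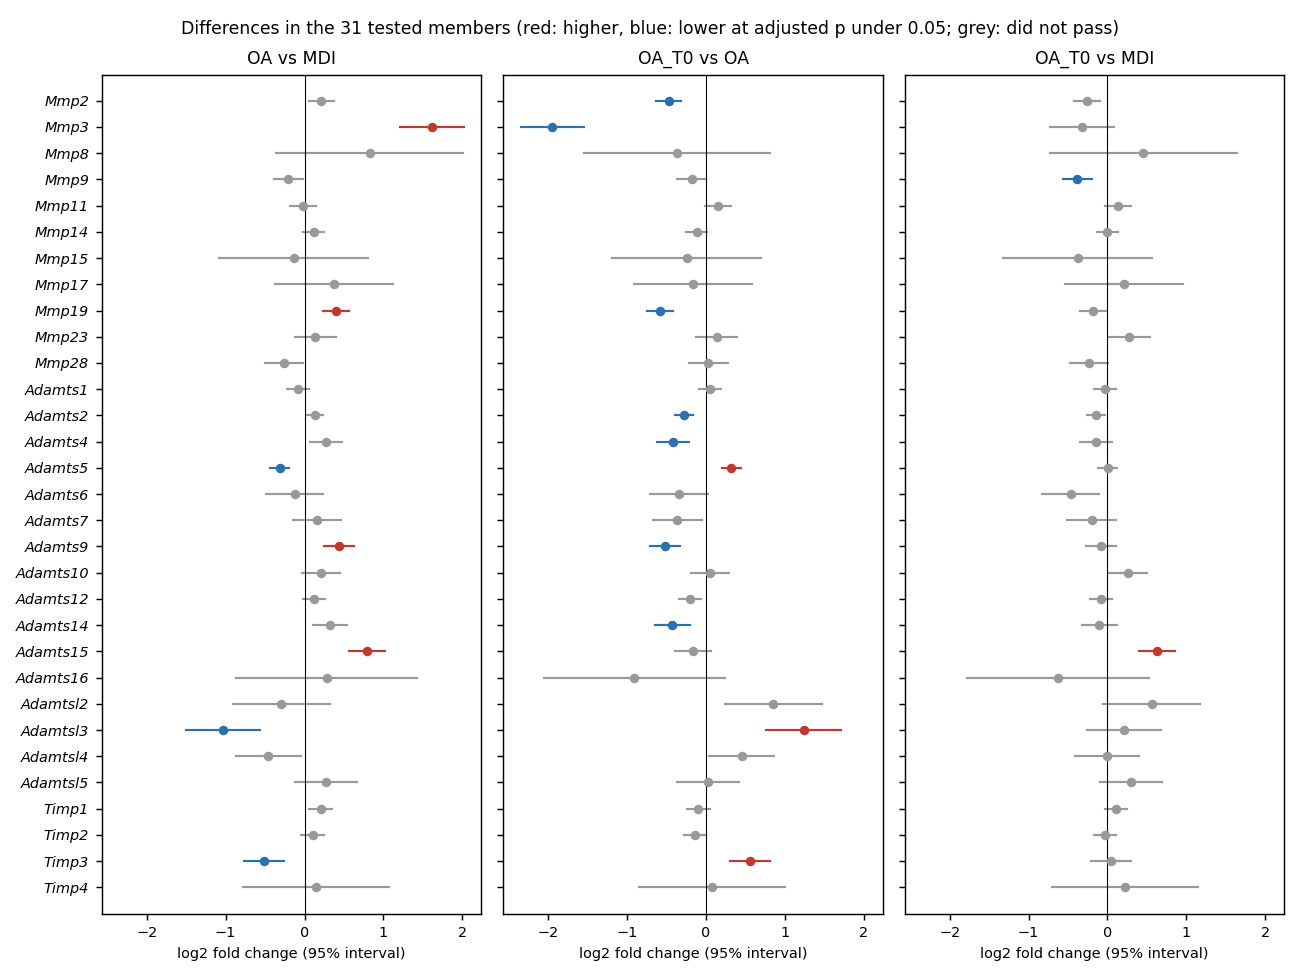
Log2 fold change with its 95% interval for the 31 tested genes in the 3 comparisons, red where higher and blue where lower at an adjusted p under 0.05, grey where not passing. Mmp3 lies farthest from 0 among the passing genes in OA against MDI (1.62) and in OA_T0 against OA (-1.95), and most intervals of OA_T0 against MDI include 0.

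Mmp3, which cuts proteoglycans, laminin and fibronectin and can activate other precursors, changed most among those that passed. It was at 42.8, 52.2 and 48.4 in MDI, at 153, 158 and 135 in OA, and at 34.1, 34.2 and 46.2 in OA_T0. The OA libraries lay far above the other 6, whose values overlapped. Oleic acid went with a 3.12-fold rise (log2 fold change 1.62, SE 0.19, adjusted p = 9.20e-05). The fall with the agonist was 3.90-fold (log2 fold change -1.95, SE 0.19, adjusted p = 7.06e-06). OA_T0 against MDI gave a log2 fold change of -0.33 with a 95% interval from -0.73 to 0.077 (adjusted p = 0.372). Both calls of Mmp3 held when any 1 library was left out, and without OA replicate 1 and OA_T0 replicate 3.

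Mmp19, a secreted metalloproteinase of basement membrane proteins, followed the same order at a higher level. It stood at 1554, 1681 and 1839 in MDI, 2218, 2111 and 2361 in OA, and 1387, 1658 and 1434 in OA_T0. Every OA library was above every other library, and MDI and OA_T0 overlapped. Its log2 fold change was 0.40 in OA against MDI (SE 0.08, adjusted p = 0.00679) and -0.58 in OA_T0 against OA (SE 0.08, adjusted p = 1.68e-04). Between OA_T0 and MDI it was -0.18, with a 95% interval from -0.35 to -0.012 (adjusted p = 0.239). Tmem198b, which overlaps Mmp19 on the opposite strand, averaged 507, 644 and 585 in MDI, OA and OA_T0. Whether strand was used in counting is not given in the sources used here, so reads of such pairs cannot be told apart.

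The gelatinases cut denatured collagen and collagen IV. Mmp2, gelatinase A and the most abundant Mmp gene per kb, was at 9616, 8132 and 9106 in MDI, 10311, 9990 and 10754 in OA, and 6858, 8234 and 7342 in OA_T0. The OA values lay above all others, while OA_T0 replicate 2 exceeded MDI replicate 2. With the agonist Mmp2 fell by 0.47 on the log2 scale (SE 0.07, adjusted p = 6.32e-04). Its difference in OA against MDI, 0.21, did not pass (adjusted p = 0.108), nor did that in OA_T0 against MDI, -0.26 (adjusted p = 0.0839, and 0.0338 without OA_T0 replicate 2).

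Mmp9, gelatinase B, was lower in OA_T0 than in MDI with an intermediate mean in OA. It stood at 848, 856 and 951 in MDI, 812, 743 and 743 in OA, and 626, 644 and 766 in OA_T0. MDI lay above both other groups, and OA_T0 replicate 3 was within the OA range. The log2 fold change in OA_T0 against MDI was -0.39 (SE 0.09, adjusted p = 0.0269). That call was lost when any 1 MDI library, or replicate 1 or 2 of OA_T0, was left out, with adjusted p up to 0.168. Mmp9 did not pass in OA against MDI (log2 fold change -0.21, adjusted p = 0.176) or OA_T0 against OA (-0.18, adjusted p = 0.178, and 0.0494 without OA_T0 replicate 3). Neutrophils and macrophages also make MMP9. The summed neutrophil markers were 2.07 to 12.1 units and the summed macrophage markers 100.0 to 153.2 units per library.

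Mmp14, which is anchored in the membrane and activates the MMP2 precursor together with TIMP2, was steadier than Mmp2. It was at 3405, 3462 and 3834 in MDI, 3831, 3714 and 4032 in OA, and 3612, 3689 and 3367 in OA_T0. OA overlapped with MDI but lay above OA_T0. Its log2 fold change was 0.11 in OA against MDI (95% interval -0.018 to 0.25) and -0.12 in OA_T0 against OA (-0.25 to 0.014), and neither passed. The other 6 tested Mmp genes, Mmp8, Mmp11, Mmp15, Mmp17, Mmp23 and Mmp28, passed in no comparison. Among them Mmp11, stromelysin-3, averaged 623, 613 and 682 in MDI, OA and OA_T0, and Mmp28, epilysin, 437, 368 and 373.

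**Figure D3:**
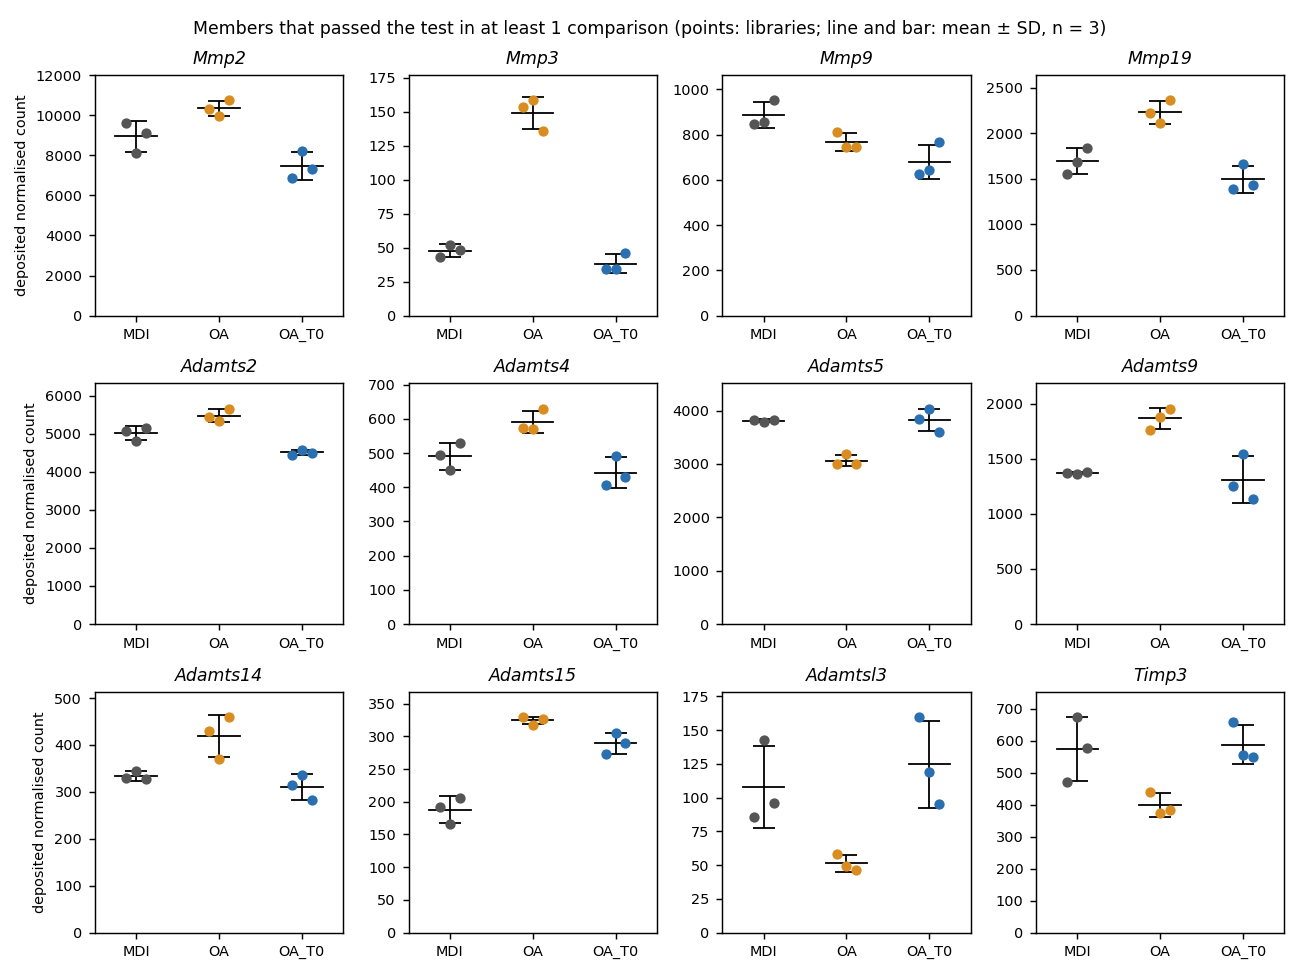
Deposited normalised counts of the 12 genes that passed in at least 1 comparison, each point a library, with the mean and SD of 3 libraries per group and axes from 0. The OA points lie above the other 6 in Mmp2, Mmp3, Mmp19, Adamts2, Adamts4, Adamts9, Adamts14 and Adamts15 and below them in Adamts5, Adamtsl3 and Timp3.

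Several ADAMTS proteases cut aggrecan and versican, the large proteoglycans of cartilage and loose connective tissue. Adamts1, the most abundant of them here, differed little, at 19148, 18668 and 19462 in MDI, 18171, 18043 and 17952 in OA, and 18506, 20568 and 17183 in OA_T0. OA lay below MDI without overlap, but its log2 fold change was only -0.080 (95% interval -0.22 to 0.061, adjusted p = 0.550). Adamts5, its neighbour on the chromosome and a major aggrecanase, fell with oleic acid and rose with the agonist. It was at 3819, 3778 and 3833 in MDI, 3002, 3188 and 2999 in OA, and 3836, 4033 and 3605 in OA_T0. The OA values were below the other 6, and those of MDI lay inside the range of OA_T0. The log2 fold change was -0.32 (SE 0.06, adjusted p = 0.00334) in OA against MDI and 0.32 (SE 0.06, adjusted p = 0.00151) in OA_T0 against OA. In OA_T0 against MDI the difference was 0.0040, with a 95% interval from -0.12 to 0.12. Of the chondrocyte markers, fixed because aggrecanases are known from cartilage, Sox9 alone averaged at least 10 units. The sum of the 5 markers moved with Adamts5, at 2409 to 2626 in MDI, 1935 to 2128 in OA and 2388 to 2633 in OA_T0, while Acan, Col2a1, Comp and Matn1 were at or near 0; its part in the result was not tested.

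Adamts9, a versican-cutting protease, moved opposite to Adamts5. It was at 1376, 1360 and 1381 in MDI, 1764, 1884 and 1954 in OA, and 1254, 1546 and 1137 in OA_T0. OA was above all other libraries, and OA_T0 spread around the MDI values. On the log2 scale it rose by 0.44 with oleic acid (SE 0.09, adjusted p = 0.00756) and fell by 0.52 with the agonist (SE 0.09, adjusted p = 0.00126). OA_T0 against MDI gave -0.076, with a 95% interval from -0.27 to 0.11.

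Adamts4, another aggrecanase, was at 493, 449 and 528 in MDI, 573, 570.2 and 629 in OA, and 406, 492 and 431 in OA_T0. OA lay above both other groups, which overlapped. Adamts4 fell with the agonist (log2 fold change -0.42, SE 0.09, adjusted p = 0.00782), and did not pass in OA against MDI (0.27, adjusted p = 0.104). Its call was lost without OA_T0 replicate 1 (adjusted p = 0.0555) and, narrowly, without OA replicate 1 and OA_T0 replicate 3 together (0.051).

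Adamts15, a further proteoglycan-cutting member, was the gene that passed in OA_T0 against MDI in the upward direction. It stood at 192, 165 and 206 in MDI, 329, 318 and 326 in OA, and 273, 306 and 289.7 in OA_T0. Both groups given oleic acid lay above MDI without overlap, and OA_T0 lay below OA without overlap. Against MDI it was 1.73-fold higher in OA (log2 0.79, SE 0.11, adjusted p = 3.68e-04) and 1.54-fold higher in OA_T0 (log2 0.63, SE 0.11, adjusted p = 0.00499). The difference between OA_T0 and OA, -0.16, did not pass (95% interval -0.39 to 0.064, adjusted p = 0.330).

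Adamts2 and Adamts14 are procollagen N-proteinases, which trim the amino end of fibrillar procollagens. Adamts2 was at 5068, 4801 and 5164 in MDI, 5434, 5331 and 5654 in OA, and 4452, 4585 and 4507 in OA_T0. The 3 groups did not overlap, OA being highest and OA_T0 lowest. With the agonist it fell by 0.28 on the log2 scale (SE 0.05, adjusted p = 0.0026). Against MDI neither OA (0.13, adjusted p = 0.175) nor OA_T0 (-0.15, adjusted p = 0.153) passed. Adamts14 was at 329, 345 and 327 in MDI, 429.5, 369 and 459 in OA, and 315, 337 and 282 in OA_T0. OA lay above both other groups, which overlapped. It fell with the agonist as well (log2 fold change -0.43, SE 0.10, adjusted p = 0.0122), a call lost without OA replicate 1 (adjusted p = 0.0575) and without OA replicate 1 and OA_T0 replicate 3 together (0.146). Its difference in OA against MDI, 0.32 on the log2 scale, had an adjusted p of 0.0780, and of 0.0434 without OA replicate 2. Both of these genes thus had their highest mean in OA.

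Adamts1, Adamts6, Adamts7, Adamts10, Adamts12 and Adamts16 passed in no comparison. Adamts12, which cuts cartilage oligomeric matrix protein, lay nearest to the threshold in OA_T0 against OA, at 2075 in OA and 1809 in OA_T0 (log2 fold change -0.20, adjusted p = 0.0513). It passed under quantile normalisation (0.0225) and equal library totals (0.0315), and without MDI replicate 3 (0.0482), OA replicate 3 (0.0436) or OA_T0 replicate 2 (0.0187). Adamts6 passed there without OA replicate 3 (0.0454).

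Several ADAMTS-like proteins bind fibrillin microfibrils. Adamtsl3 was at 85.5, 143 and 95.8 in MDI, 58.2, 49.6 and 46.2 in OA, and 159, 119 and 95.5 in OA_T0. All OA values lay below the other 6, and MDI and OA_T0 overlapped widely. Its fall with oleic acid was 2.10-fold (log2 -1.03, SE 0.22, adjusted p = 0.0114), a call lost without MDI replicate 2 (0.0857). Its rise with the agonist was 2.43-fold (log2 1.24, SE 0.22, adjusted p = 0.00165). Adamtsl5, the highest of its family, was at 125, 84.9 and 135 in MDI, 114, 149 and 151 in OA, and 135, 159.9 and 125 in OA_T0. Its groups overlapped and it did not pass (log2 fold change 0.28 in OA against MDI, adjusted p = 0.432). Adamtsl2 had values of 15.7 to 21.1 in OA and 33.9 to 36.2 in OA_T0, without overlap, but an adjusted p of 0.0593 (0.029 under quantile normalisation). The mean of Adamtsl4 was 123 in OA_T0 beside 91.1 in OA (adjusted p = 0.127, and 0.0286 if OA replicate 3 is left out).

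Among the inhibitors, Timp3 moved while the abundant Timp1 and Timp2 did not pass, except that Timp2 passed in OA_T0 against OA under quantile normalisation (adjusted p = 0.0474). TIMP3 is bound to the matrix and is known to inhibit several ADAMTS proteases as well as metalloproteinases. Timp3 was at 472, 672 and 577 in MDI, 441, 373 and 383 in OA, and 657, 556 and 549 in OA_T0. OA lay below both other groups, which overlapped. It fell with oleic acid (log2 fold change -0.51, SE 0.12, adjusted p = 0.0186), a call lost if MDI replicate 2 (0.120) or replicate 2 (0.0637) or 3 (0.0595) of OA is left out. It rose with the agonist (log2 fold change 0.56, SE 0.12, adjusted p = 0.00589), and that call held when any 1 library was left out. Syn3, whose gene overlaps Timp3 on the opposite strand, averaged under 4 units in each group.

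Timp1 was at 6021, 6746 and 7000 in MDI, 7147, 7441 and 8158 in OA, and 7283, 6932 and 7027 in OA_T0. OA lay above MDI without overlap, and OA_T0 overlapped with both. The log2 fold change in OA against MDI was 0.20 (95% interval 0.061 to 0.35, adjusted p = 0.0854). Timp2 was at 13399, 14417 and 15101 in MDI, 15524, 14839 and 15642 in OA, and 13823, 15027 and 13078 in OA_T0. Its groups overlapped in all 3 comparisons, with log2 fold changes of 0.10, -0.14 and -0.034 in OA against MDI, OA_T0 against OA and OA_T0 against MDI. Timp4 was low, at 17.6, 13.1 and 19.2 in MDI, 11.2, 37.6 and 14.0 in OA, and 22.8, 25.1 and 12.3 in OA_T0, and the groups overlapped. Its log2 fold change in OA against MDI was 0.14, with a 95% interval from -0.78 to 1.07. In OA_T0 against MDI limma called 0 of the 4 Timp genes and 0 of the 4 Adamtsl genes, and 0 of either family had an unadjusted p below 0.05.

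Summed per kb, the Mmp genes stood at 5445, 5063 and 5572 in MDI, 6059, 5848 and 6326 in OA, and 4557, 5103 and 4694 in OA_T0. The OA sums lay above the rest. The Timp sums were 10535, 11672 and 12125 in MDI, 12375, 12514 and 13540 in OA, and 12118, 12025 and 11603 in OA_T0. The ratio of Timp to Mmp sums was 1.93, 2.31 and 2.18 in MDI and 2.04, 2.14 and 2.14 in OA, and higher in all OA_T0 libraries at 2.66, 2.36 and 2.47. These sums are dominated by Timp1, Timp2 and Mmp2, describe RNA and not active protein, and were not tested.

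Genes that act on or with these enzymes were followed in 4 lists, whose medians are read beside those of all tested genes given before. In OA against MDI 36.4%, 25%, 20% and 25% of the lists were called, in the order below, beside 6.79% of all tested genes. In OA_T0 against OA it was 36.4%, 56.3%, 40% and 37.5%, beside 15.1%, and in OA_T0 against MDI 0%, 12.5%, 0% and 0%, beside 2.61%. The lists were chosen with earlier results of these data known, so these shares are not independent evidence about them. The share of all tested genes at an unadjusted p below 0.05 is not given here. Of 11 tested activators and inhibitors outside the family, 3 rose with oleic acid. Serpine2, a protease inhibitor, rose from 4767 to 5840 (log2 fold change 0.29, adjusted p = 0.00416). Reck, a membrane-anchored inhibitor of metalloproteinases, and Bsg, known as an inducer of their expression, rose by log2 fold changes of 0.33 and 0.22. Both calls were lost without several single libraries, with adjusted p up to 0.209 for Reck and 0.165 for Bsg. The risers numbered 1 if replicate 1 or 2 of MDI, 1 or 3 of OA, or 1 of OA_T0 was left out.

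With the agonist 2 of these 11 fell. Serpine2 fell to 4969 (log2 fold change -0.23, adjusted p = 0.00934, and 0.120 without OA replicate 1 and OA_T0 replicate 3 together). Plaur, the urokinase receptor, rose and Plat, tissue plasminogen activator, fell (log2 fold changes 0.41 and -0.32). The call of Plaur was lost when any 1 of the 6 OA and OA_T0 libraries was left out, and that of Plat when any 1 OA library, MDI replicate 2, or replicate 1 or 3 of OA_T0 was left out, with adjusted p up to 0.149 in both. In OA_T0 against MDI 0 of the 11 passed by limma, with 3 at an unadjusted p below 0.05. The list's median log2 fold change was 0.22, -0.16 and 0.021 in OA against MDI, OA_T0 against OA and OA_T0 against MDI.

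Of 16 tested substrates and matrix partners, 1 rose and 3 fell with oleic acid. Thbs2, thrombospondin-2, rose from 3300 to 5374 (log2 fold change 0.71, adjusted p = 1.63e-05), while Thbs1 fell from 8347 to 6321 (-0.40) and Fbn1, fibrillin-1, from 18624 to 13306 (-0.48). Col4a2, a collagen IV chain, fell by 0.27, a call lost if replicate 1 or 2 of MDI or of OA, or 1 of OA_T0, was left out (adjusted p up to 0.160). With the agonist 4 rose and 5 fell. Thbs2 fell to 2807 (log2 fold change -0.94, adjusted p = 4.32e-07), Nid1, nidogen-1 of basement membranes, from 45247 to 31105 (-0.54), and Col3a1 from 77738 to 58864 (-0.40), while Thbs1 rose to 8787 (0.48). The risers numbered 2 if replicate 1 or 2 of OA or 1 of OA_T0 was left out, and 1 without OA replicate 1 and OA_T0 replicate 3 together. Between OA_T0 and MDI 2 fell, Nid1 (log2 fold change -0.36, adjusted p = 0.0111) and Col3a1 (-0.34, adjusted p = 0.0313). Both were lost without MDI replicate 2 or OA_T0 replicate 1, and Col3a1 also without replicate 1 of MDI or of OA, or 2 or 3 of OA_T0 (adjusted p up to 0.0660 and 0.180). The median over the 16, in the same order of comparisons, was -0.059, -0.097 and -0.21.

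Of 10 ADAM proteases, the membrane-bound relatives, 2 rose and 0 fell with oleic acid, by limma with 6 at an unadjusted p below 0.05. Adam23, a member without protease activity, rose from 7304 to 9583 and fell with the agonist to 7762 (log2 fold changes 0.39 and -0.31). Adam10, a major sheddase, rose from 6693 to 7837 and fell to 6340 (0.23 and -0.31), and its rise was lost if replicate 1 or 2 of MDI or of OA, or 1 of OA_T0, was left out (adjusted p up to 0.130). With the agonist 1 rose and 3 fell, the others being Adam15 (log2 fold change 0.34) and Adam19 (-0.38), both lost if replicate 1 of OA or of OA_T0 was left out. Without OA replicate 1 and OA_T0 replicate 3 together 0 of the 10 fell. Their median log2 fold change was 0.16, -0.13 and 0.055 in that order.

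Among 8 tested lysosomal and other matrix proteases, 2 rose and 0 fell with oleic acid, by limma with 2 at an unadjusted p below 0.05. Htra3, a secreted serine protease, rose from 135.2 ± 14.4 to 437 ± 47.5 (SD, n = 3; log2 fold change 1.69, adjusted p = 1.12e-06). It fell with the agonist to 124 ± 10.99 (SD, n = 3; log2 fold change -1.80, adjusted p = 3.07e-07). Ctsb, cathepsin B, rose by 0.30 and fell by 0.26, and both calls were lost without OA replicate 1, the rise also without MDI replicate 2 and the fall also without OA_T0 replicate 1. Ctsk, cathepsin K, rose with the agonist by 0.43, a call lost if replicate 1 or 2 of OA, or 1 or 3 of OA_T0, was left out (adjusted p up to 0.131). In OA_T0 against MDI limma called 0 of the 10 ADAM genes and 0 of these 8, with 2 and 1 at an unadjusted p below 0.05. The median of the 8 was 0.072, -0.056 and 0.013.

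**Figure D4:**
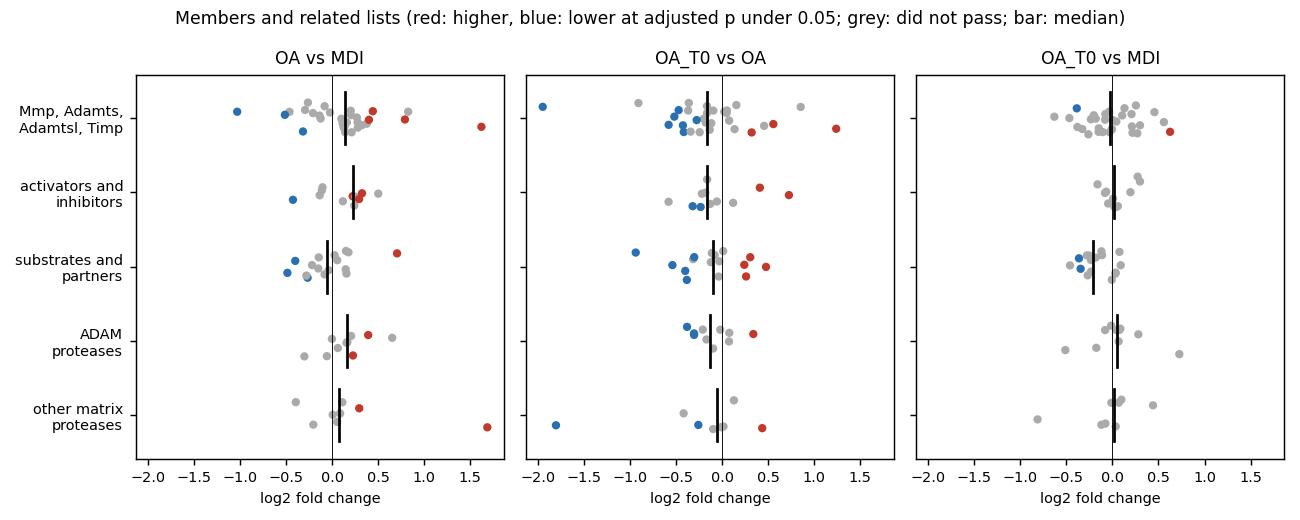
Log2 fold changes of the 31 tested genes and of the 4 related lists in the 3 comparisons, each point a gene, red where higher and blue where lower at an adjusted p under 0.05, with a bar at the list's median. Mmp3 and Htra3 are the rightmost points of OA against MDI and the leftmost of OA_T0 against OA.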

How the data were processed

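The authors deposited a table of normalised counts per gene for 9 libraries, a signal that is not in whole numbers; the submitters' processing notes name CASAVA 1.8.2, TopHat, HTSeq, DESeq2 and the build mm9, with no role for each. Low values fell on multiples of 1 step per library, which gave estimated depths, but 62.3% to 68.8% of values between 5 and 50 steps were whole within 0.05 of a step, so whole reads were not recovered. Values were tested as log2(value + 1), which understates changes of low genes, for the 15002 genes with a mean of at least 10, with limma 3.58.1 in R 4.3.3 (intensity trend, 1 spread over the 3 groups, two-sided). Intervals are at 95%.

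The genes and lists were chosen with earlier results of these data known, so their shares of calls beside all tested genes are descriptive only. Genes were named if they passed in any comparison, with Mmp2, Mmp14, the Timp genes and the highest of each family added, and up to 4 passing genes per related list and comparison. Coding transcript lengths are the longest in GENCODE M21, found for all 44 genes; the promoter table is from RefSeq. Replicate numbers were not used to pair the libraries in the main fit, and the labels do not say whether they mark a pairing. On simulated data the tests recovered 61.3% to 68.2% of 1.5-fold changes, 75% to 78.3% of 2-fold and 90.6% to 95.7% of 4-fold. Of the calls there, 3.09% to 5.56% were false. In each simulation 200 genes were changed, each gene's spread was drawn at random from all genes whatever its level, and noise was independent between libraries. The real libraries differ in these respects, so the rates may not hold for them. Changes under 1.5-fold were not simulated, so a gene that did not pass may still differ. Alternatives were pseudocounts of 0.5 and 5, no filter or one at 50, other scalings, fits of only 2 groups, a replicate block, robust variances and leaving out libraries; leaving out OA replicate 1 and OA_T0 replicate 3 together was chosen after seeing the data. Not every gene of the related lists, nor every overlapping gene, is reported here.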

Additional observations from a re-analysis of the deposited data

How the results depend on the processing

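Of the 19 calls of single genes of the family, 13 kept their direction and side of the threshold under all 19 alternatives, and 6 did not: Adamts9, Adamtsl3 and Timp3 in OA against MDI, Adamts4 and Adamts14 in OA_T0 against OA, and Mmp9 in OA_T0 against MDI. No call of the family reversed. Without a filter on low values, 1 gene of the family fell in OA against MDI and 0 in OA_T0 against MDI, by limma, and all genes called numbered 467 in OA against MDI, 1470 in OA_T0 against OA and 110 in OA_T0 against MDI, fewer than with the filter; more low genes were tested there, and the cause was not tested. Adamts9 then had adjusted p = 0.0558, Adamtsl3 0.0668, Timp3 0.0880 and Mmp9 0.116. Without OA replicate 1 and OA_T0 replicate 3 together, 924 genes were called in OA_T0 against OA, with fewer libraries, and 5 rather than 7 genes of the family fell.

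With 1 library left out, the genes of the family called in OA against MDI numbered 4 to 5 higher and 1 to 3 lower (1 without MDI replicate 2), in OA_T0 against OA 3 to 4 higher and 6 to 9 lower, and in OA_T0 against MDI 1 higher throughout and 0 to 1 lower (0 when any 1 MDI library or OA_T0 replicate 1 was left out). All genes called ranged from 369 to 1273, from 1054 to 2528 and from 111 to 501 in the same order. The lowest were without MDI replicate 2, OA_T0 replicate 1 and OA_T0 replicate 1, and the counts also moved by over 1.5 times without MDI replicate 1 (522 and 129 in the comparisons with MDI), MDI replicate 2 (122 in OA_T0 against MDI), OA replicate 1 (562 in OA against MDI and 1206 in OA_T0 against OA) and OA replicate 2 (1388 in OA_T0 against OA).

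Deviations of same-numbered libraries correlated at -0.26 to 0.26 over 9 pairs, and 2 of 9 libraries correlated best with their own number. No pairing by number was seen, but deviations from means of 3 libraries cannot settle whether same-numbered libraries were handled together. With the replicate block the family's counts were again 4 higher and 3 lower, 3 and 7, and 1 and 1, and all genes called numbered 850, 2011 and 339. Of the related lists it lost Reck (adjusted p = 0.0567) and Col4a2 (0.0642) in OA against MDI, Plaur in OA_T0 against OA (0.0656) and Col3a1 in OA_T0 against MDI (0.0669). Equal totals or quantile normalisation shifted the median of all genes by less than 0.1 on the log2 scale. In OA_T0 against OA, quantile normalisation added calls of Adamts12 (0.0225), Timp2 (0.0474) and Adamtsl2 (0.029), and equal totals that of Adamts12 (0.0315), which also passed with a filter at 50 (0.0453) or robust variances (0.0464). Of the related lists, quantile normalisation added Bsg in OA_T0 against OA (0.0177) and Fbn1 in OA_T0 against MDI (0.0423) and lost Col3a1 there (0.0506), and equal totals added Bsg (0.0321) and lost Plaur (0.0577) in OA_T0 against OA and added Thbs2 in OA_T0 against MDI (0.0464). The 13 untested genes lay near or under the floor set by depth, and whether depth or low expression put them there was not tested. Mmp8, Mmp15, Mmp17, Adamts16 and Timp4 had intervals wide enough to hide a change of the size seen for Adamts15 in OA against MDI (log2 0.79). In some comparisons the same held for Adamtsl2 (-0.91 to 0.32 in OA against MDI), Adamtsl4 (-0.87 to -0.050 there) and Adamts6 (-0.83 to -0.10 in OA_T0 against MDI).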
